A study of Mus musculus with 3 samples.

Results

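Cytotoxic and gamma-delta T cells (hereafter cytotoxic/γδ T cells) of the small intestinal muscularis were taken from single-cell RNA sequencing of sorted CD45+ immune cells. A cell was a member when it held at least 2 unique molecular identifiers (UMIs, 1 per captured transcript) summed over Cd3d, Cd3e, Cd3g, Trac, Trbc1, Trbc2 and Trdc, at least 2 UMIs summed over Gzma, Gzmb, Cd8a and Trdc, no UMI of the B cell genes Cd79a and Ms4a1, and less than 0.3% of its UMIs in the myeloid gene Lyz2. The rule found 219 cells of 4102. They are compared below with the other T cells, 155 cells that met the same receptor, B cell and Lyz2 limits but held fewer than 2 UMIs of the 4 cytotoxic and γδ genes.

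The study followed muscularis inflammation, which is induced by intestinal manipulation (IM), a surgical handling of the bowel. Muscularis cells came from 12-week-old wild-type C57BL/6J mice, female per the study's methods, that were naïve (day 0 in the labels), at 24 h (day 1) or at 72 h (day 3) after IM. Each time point is 1 library made from pooled mice, so animals are not separable, effects of time and of the single library cannot be told apart, and no test between time points was possible. The gate kept all CD45+ cells, and no other treatment or allele was given. The whole libraries held 652, 2211 and 1239 cells in the order naïve, 24 h and 72 h, which is the order of every trio of values below, with between 500 and 20005 UMIs per cell. The members had a median of 2337, 2582 and 2640 UMIs per cell and the other T cells 2303, 2288 and 2958. Each pair of libraries shared 1 cell barcode, and 1 of these 3 shared barcodes belonged to a member.

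T cells carry their antigen receptor as an αβ or a γδ pair together with the CD3 chains, whose genes are Cd3d, Cd3e, Cd3g and Cd247. Cytotoxic T cells kill target cells with granzymes delivered through perforin. In the intestine many T cells reside in or near the epithelium, where both γδ cells and αβ cells with a CD8αα homodimer are common, hold αE integrin (CD103) and contain granzymes A and B.

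Members made up 137 of 652 naïve cells, which is 21.0% (95% exact binomial interval 17.9 to 24.3%). At 24 h they were 27 of 2211 cells, or 1.22% (0.806 to 1.77%), and at 72 h 55 of 1239 cells, or 4.44% (3.36 to 5.74%). The share was thus highest in the naïve library and lowest at 24 h, and the 3 intervals did not overlap. They cover counting error only, and a share of sorted CD45+ cells gives no number of cells per tissue. Among T cells alone, members were 137 of 181 naïve T cells (75.7%, 68.8 to 81.7%), 27 of 63 at 24 h (42.9%, 30.5 to 56.0%) and 55 of 130 at 72 h (42.3%, 33.7 to 51.3%), so that the 24 h and 72 h shares were alike in size while the naïve share lay above both intervals. When every cell was thinned to 1000 UMIs, members were 19.7%, 0.682% and 2.97% of the cells that were deep enough, which kept the order of the 3 libraries.

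Most members lay far from the thresholds in the naïve library and nearer to them later. The median member held 49, 15 and 14 UMIs of the 4 cytotoxic and γδ genes and 28, 18 and 22 UMIs of the T cell receptor and CD3 genes. Just inside the limit, 5, 3 and 6 members held exactly 2 cytotoxic or γδ UMIs. Just outside it, 13, 3 and 18 other T cells held 1 such UMI. For the receptor and CD3 genes, 0, 3 and 5 members held exactly 2 UMIs, and 1, 1 and 5 cells just outside held 1. A further 5, 5 and 4 cells failed on the Lyz2 limit alone, and 6, 0 and 0 cells with enough receptor and cytotoxic UMIs failed on the B cell genes.

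**Figure D1:**
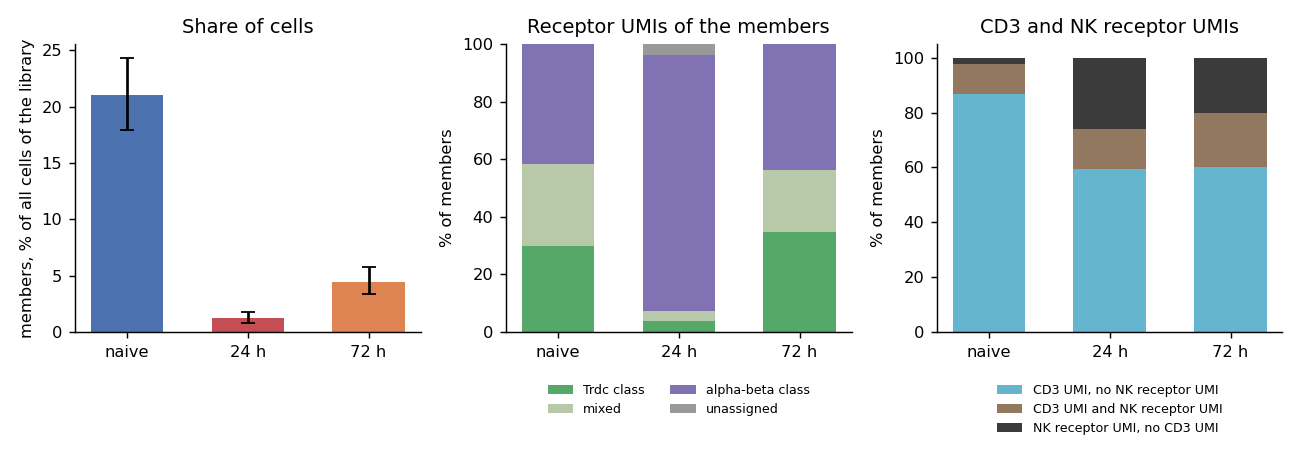
Bars show, for the naïve, 24 h and 72 h libraries, the cytotoxic/γδ T cells as a percentage of all cells with 95% exact binomial intervals (left), the classes of their receptor UMIs (middle) and their CD3 and NK receptor UMIs (right), both as percentages of members. The share is 21.0%, 1.22% and 4.44%, the Trdc class holds 1 cell at 24 h, and members without a CD3 UMI are a larger part at 24 h and 72 h than in the naïve library.

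The label was checked against the markers Gzma, Gzmb, Cd8a, Trdc, Cd7 and Ccl5, of which Cd7 and Ccl5 were not part of the rule. Ccl5, a chemokine of activated and memory T cells, had a UMI in 94.2, 92.6 and 80.0% of members, against 20.6, 0 and 27.3% of B cells, at medians of 1775, 1677 and 2175.5 UMIs, and 36.8, 15.4 and 35.6% of Lyz2-high myeloid cells, some of which can make it, at medians of 4072, 6583 and 5960 UMIs. Cd7, a surface protein of T and NK cells, was found in 85.4, 29.6 and 63.6% of members and in 8.77, 1.24 and 3.87% of those myeloid cells. Over the 3 libraries together the label held for most cells, but not for all of them. It was weakest at 24 h, where 29.6% of members held Cd7 and 7 of 27 had no CD3 UMI. No UMI of Cd3d, Cd3e or Cd3g was found in 3, 7 and 11 members, 21 cells in all, which entered through receptor UMIs such as those of Trbc1 (19 of 21 cells). All 21 held a UMI of Ncr1, Klrb1c or Klre1, receptor genes of natural killer (NK) cells, and all 21 held Tyrobp and Fcer1g, the adaptors of such receptors, whereas Itgae and Cd8b1 had no UMI in any and Cd8a in 1. Ccl5 was found in 19 of the 21 and Cd7 in 7, so Ccl5 did not set these cells apart from the other members. These 21 cells do not carry the label's defining markers of a T cell. For some genes below, values are given without these 21 cells, or without every cell that held 1 of the 3 NK receptor UMIs (18, 11 and 22 members). The same NK receptor UMIs were found in 11, 12 and 11 other T cells and in 0 B cells.

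Trdc UMIs were fewest among the members of the 24 h library. Trdc, the constant region of the δ chain (chr14:54142851-54146108, GRCm38), counts towards both sums of the rule, so its values describe the cells chosen. Its level in members was 1382, 179 and 882 CPM (pooled UMI counts of the group, per 1000000 UMIs). A Trdc UMI was present in 80 of 137 naïve members (58.4%, 49.7 to 66.7%), in 2 of 27 at 24 h (7.41%, 0.91 to 24.3%) and in 31 of 55 at 72 h (56.4%, 42.3 to 69.7%). After thinning to 1000 UMIs the shares were 53.1, 7.41 and 43.6%, and in myeloid cells, unthinned, 1.75, 0.156 and 1.21%. The 3 measured γ chain constant genes, none of which the rule used, followed the same order, with 1016, 89.3 and 665 CPM for Tcrg-C1, 887, 217 and 502 CPM for Tcrg-C2 and 615, 102 and 322 CPM for Tcrg-C4. At least 1 of them was detected in 93.4%, 33.3% and 69.1% of members. These genes are close copies of each other, so reads may be split between them.

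By their receptor UMIs, 41, 1 and 19 members formed a Trdc class (Trdc present, Trac absent), 57, 24 and 24 an alpha-beta class (Trac, Trbc1 or Trbc2 present, Trdc absent) and 39, 1 and 12 held both Trdc and Trac. As percentages, the Trdc class was 29.9%, 3.70% and 34.5% of members. The alpha-beta class was 41.6%, 88.9% and 43.6%. 1 member at 24 h fitted no class. Part of the alpha-beta class carried NK receptor UMIs or lacked CD3. With a CD3 UMI required it held 54, 17 and 16 cells, and without members that held an NK receptor UMI 47, 13 and 10 cells, the last being 30.3% of the 72 h members left. Trac, the constant region of the α chain (chr14:54220521-54224198), reached 501, 791 and 391 CPM in members and 611, 523 and 617 CPM in the other T cells. Trbc1 reached 776, 1097 and 692 and Trbc2 1703, 1684 and 1040.4 CPM in members. None of these 3 genes had its lowest value at 24 h. The CD3 chains were lower at 24 h, with 3929, 1416 and 2128 CPM for Cd3g and 1677, 472 and 956 CPM for Cd3e.

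Cd8a encodes the CD8 chain that homodimers and heterodimers share, and Cd8b1 the chain found only in the heterodimer. Cd8a, a gene of the rule, stood at 1637, 625 and 834 CPM in members, and Cd8b1 at 343, 268 and 211 CPM. Cd8a without any Cd8b1 UMI was seen in 83 of 137 naïve members (60.6%, 51.9 to 68.8%), in 4 of 27 at 24 h (14.8%, 4.19 to 33.7%) and in 23 of 55 at 72 h (41.8%, 28.7 to 55.9%). Both chains together were seen in 22.6%, 25.9% and 14.5% of members. The part with Cd8a alone thus had its lowest value at 24 h, while the part with both chains had intervals that overlapped among the 3 libraries. At a Cd8b1 level of a few UMIs per cell a missing UMI does not show that a cell lacks the chain. Cd4 was rare, with a UMI in 2 of 137 (1.46%), 2 of 27 (7.41%) and 0 of 55 (0%) members. Trdc and Cd8a were found in the same cell in 65, 1 and 17 members.

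Granzyme A and granzyme B transcripts differed in their order over the 3 libraries. Both are genes of the rule, and where few cells hold Trdc or Cd8a, as at 24 h, members enter mostly through a granzyme, so the granzyme shares are a description of the cells chosen. Gzma (chr13:113093824-113100981), a gene of the rule, stood at 25755, 6671 and 15332 CPM in members. Gzmb (chr14:56258836-56262334), the granzyme that activates caspases in the target cell, stood at 4802, 2793 and 2239 CPM. Both were highest in the naïve library, and Gzma but not Gzmb was higher at 72 h than at 24 h. Gzmb without Gzma was found in 4 of 137 naïve members (2.92%, 0.801 to 7.31%), in 11 of 27 at 24 h (40.7%, 22.4 to 61.2%) and in 4 of 55 at 72 h (7.27%, 2.02 to 17.6%). Both granzymes were found in 65.0%, 44.4% and 52.7% of members, and the 3 intervals overlapped. The 24 h share includes members without a CD3 UMI, of which 7 of 7 held Gzma and 6 held Gzmb. Among members with a CD3 UMI, Gzma was found in 101 of 134, 6 of 20 and 27 of 44 cells. Gzmb was found in 92, 17 and 26 of the same cells. A Gzma UMI was also present in 19.3, 4.20 and 19.1% of myeloid cells, at 66.5, 6.69 and 58.3 CPM, and the part of RNA from outside the cell in single Gzma counts was not tested.

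Nkg7 encodes a granule membrane protein needed for the release of granules. Its level in members was 3672, 3227 and 2577 CPM against 926, 808 and 419 CPM in the other T cells, and members were higher in all 3 libraries (log2 fold change 2.22 ± 0.16 SE, edgeR adjusted p = 1.48e-04). Of the 14 genes of the cytotoxic granule list, 2 are genes of the rule and 8 others could be tested, and Nkg7 was the only call. Prf1, which encodes perforin, stood at 85.9, 179 and 79.2 CPM in members against 34.9, 9.50 and 8.06 in the other T cells (log2 fold change 2.65 ± 0.58 SE, edgeR adjusted p = 0.0573). In members with a CD3 UMI it stood at 61.2, 52.7 and 51.0 CPM. Ctsw, which encodes a cysteine protease of cytotoxic cells, stood at 867, 536 and 681 against 384, 466 and 141 CPM (log2 fold change 1.26 ± 0.33 SE, edgeR adjusted p = 0.116). The median log2 fold change of the 8 was 0.89, beside -0.00 over all genes tested.

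The promoters of these 3 granule genes are shown because the genes were abundant together in members, from 250 bases before to 50 bases after the RefSeq start site (GRCm38.p6, each 5′ to 3′ on the strand of its gene), with the letters TGTGGT or their reverse complement ACCACA, the core bound by RUNX factors, in capitals. Gzma (chr13:113100932-113101231, minus strand) holds 1 match, Gzmb (chr14:56262285-56262584, minus strand) 2 and Nkg7 (chr7:43436888-43437187, plus strand) 1.
Gzma: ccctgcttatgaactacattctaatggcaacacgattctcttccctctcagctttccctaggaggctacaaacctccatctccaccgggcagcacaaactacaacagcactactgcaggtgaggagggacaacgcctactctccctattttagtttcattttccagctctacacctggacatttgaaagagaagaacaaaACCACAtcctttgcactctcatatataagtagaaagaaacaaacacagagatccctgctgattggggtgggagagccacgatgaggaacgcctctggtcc
Gzmb: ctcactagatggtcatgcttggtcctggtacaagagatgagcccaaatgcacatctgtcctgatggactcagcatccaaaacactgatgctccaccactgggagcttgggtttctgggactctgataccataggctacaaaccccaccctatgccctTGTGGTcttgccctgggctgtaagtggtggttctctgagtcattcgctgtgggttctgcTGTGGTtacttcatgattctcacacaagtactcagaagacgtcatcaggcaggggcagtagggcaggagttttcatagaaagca
Nkg7: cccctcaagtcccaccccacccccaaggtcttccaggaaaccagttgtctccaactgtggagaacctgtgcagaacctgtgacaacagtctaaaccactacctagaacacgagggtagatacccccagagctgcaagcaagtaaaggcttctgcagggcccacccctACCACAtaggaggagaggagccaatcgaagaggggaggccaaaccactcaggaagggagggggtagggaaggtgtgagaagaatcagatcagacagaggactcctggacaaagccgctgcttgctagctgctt
The matches start 50 bases before the start site in Gzma, 93 and 34 bases before it in Gzmb and 83 bases before it in Nkg7. Either strand of this core is found in 16.8% of 32851 promoters of the same length, and in 9 of the 13 granule list genes that have a promoter entry. In the same promoters the letters GGTGTGA, a T-box factor site, are found in 3 of 13 list genes and 3.98% of all promoters, and TGACTCA, an AP-1 site, in 1 of 13 and 5.20% of all. A match describes the sequence and does not show that a factor binds there.

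**Figure D2:**
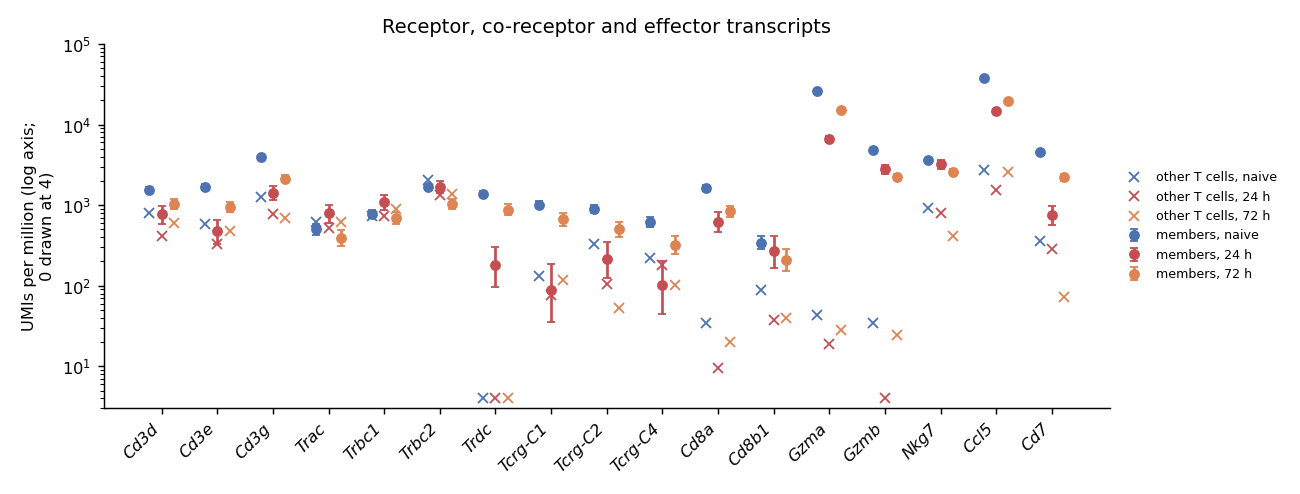
Points give CPM of summed UMIs in cytotoxic/γδ T cells with 95% exact Poisson intervals and crosses give other T cells, for each library, on a log axis on which 0 is drawn at 4. Trdc and the Tcrg genes dip at 24 h, from 1382 to 179 CPM for Trdc, while Trac and Trbc1 do not, and Ccl5 and Cd7 of members lie above other T cells in every library, as Gzma must by the rule.

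Beyond the genes of the rule, cytotoxic/γδ T cells differed from the other T cells in a small set of genes. With the 3 libraries as replicates and library as a block, 30 of 2194 genes were higher in members (1.37%) and 14 were lower (0.638%) at an edgeR adjusted p below 0.05, 2.01% in either direction. All 44 moved in the same direction in all 3 libraries. Replicates here are libraries of different time points, so the test covers only what was shared by the 3. The cells were chosen on granzyme, Cd8a and Trdc UMIs, so genes that go with those transcripts in single cells are not independent of the choice. With DESeq2 the counts were 21 and 9, and without cells that held an NK receptor UMI they were 19 and 5. Leaving out a library gave 29 and 11 (naïve), 42 and 38 (24 h) and 25 and 18 (72 h).

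A pair of integrin chains was among the largest differences. Itgae, the αE chain of CD103, which binds E-cadherin of epithelial cells, stood at 418, 102 and 259 CPM in members against 26.2, 9.50 and 16.1 CPM in the other T cells (log2 fold change 3.89 ± 0.33 SE, edgeR adjusted p = 3.88e-04). Itga1, the CD49a chain of a collagen receptor of resident T cells, stood at 235, 128 and 174 against 17.5, 28.5 and 32.2 CPM (log2 fold change 2.70 ± 0.35 SE, edgeR adjusted p = 0.00550). For both genes every member value lay above every value of the other T cells. Cxcr6, a chemokine receptor of tissue T cells and innate lymphoid cells, was lower in members, at 160.3, 128 and 275 against 376, 532 and 492 CPM (log2 fold change -1.23 ± 0.24 SE, edgeR adjusted p = 0.0414). In the list of homing and residency genes 2 of 12 tested genes were higher and 1 was lower, with a median log2 fold change of -0.20. Members without a UMI of an NK receptor had 444, 152 and 324 CPM of Itgae.

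Chemokines were higher in members. Ccl5 stood at 37786, 14732 and 19562 CPM against 2751, 1539.7 and 2543 CPM (log2 fold change 3.34 ± 0.16 SE, edgeR adjusted p = 6.31e-06). Ccl3 and Ccl4, both inflammatory chemokines, stood at 292, 395 and 238 and 1537, 1314 and 655 CPM in members and at 26.2, 47.5 and 60.5 and 87.3, 162 and 238 CPM in the other T cells. In members with a CD3 UMI Ccl3 stood at 213, 193 and 242 CPM and Ccl4 at 1343, 562 and 746 CPM. Both were higher in members, with a log2 fold change of 2.61 ± 0.32 SE for Ccl3 (edgeR adjusted p = 0.00428) and 2.68 ± 0.41 SE for Ccl4 (edgeR adjusted p = 0.0159). Xcl1, a ligand for cross-presenting dendritic cells, stood at 561, 344 and 438 against 349, 95.0 and 101 CPM (log2 fold change 1.46 ± 0.30 SE, edgeR adjusted p = 0.0455). Thus 4 of the 5 chemokine and cytokine genes that could be tested were higher, and the median over the 5 was 2.61. Ifng had too few UMIs for the test, with a UMI in 10 of 137 (7.30%), 5 of 27 (18.5%) and 5 of 55 (9.09%) members.

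Receptors and adaptors shared with NK cells were higher as well. Klrd1, which encodes the CD94 chain of NKG2 receptors, stood at 950.2, 395 and 766 CPM against 192, 105 and 56.4 CPM (log2 fold change 2.74 ± 0.33 SE, edgeR adjusted p = 0.00399). Cd244, a receptor of the SLAM family, stood at 335, 76.5 and 264 against 43.7, 47.5 and 20.2 CPM (log2 fold change 2.81 ± 0.44 SE, edgeR adjusted p = 0.0159). Cd160, a receptor for HVEM and classical and non-classical MHC class I, stood at 753, 268 and 401 against 245, 143 and 28.2 CPM (log2 fold change 2.05 ± 0.42 SE, edgeR adjusted p = 0.0455). Every member value of Klrd1 and Cd160 lay above every value of other T cells. The adaptors Tyrobp (log2 fold change 1.53 ± 0.26 SE) and Fcer1g (1.48 ± 0.28 SE) were higher too, at edgeR adjusted p values of 0.0211 and 0.0315. At 24 h, 82 UMIs of Tyrobp and 72 of Fcer1g were in the 7 members without a CD3 UMI. The 20 members with a CD3 UMI held 43 and 49. With all members, the 24 h ratio of Fcer1g over the other T cells was 1.38 (1.06 to 1.79). In all, 5 of 12 tested genes of the NK receptor list were higher and 0 lower (edgeR; its median was 1.16). The 21 members without a CD3 UMI carry the same genes, with Klrd1 in 20 of them. Klrd1 kept its call when every cell with an NK receptor UMI was left out of both groups (log2 fold change 3.87), while Cd244 was not among the genes that could then be tested.

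Of the 8 tested co-receptor and pan-T surface genes outside the rule, 2 were higher in members (Cd7 and Cd8b1) and 0 were lower by edgeR, with a median log2 fold change of -0.25, below that of all genes tested. Of the 4 tested receptor genes 2 were higher. Cd7 stood at 4528, 753 and 2218 CPM in members and 358, 285 and 72.6 CPM in the other T cells (log2 fold change 3.44 ± 0.50 SE, edgeR adjusted p = 0.0113), although the 24 h member value was the lowest of the 3. Cd8b1 stood at 343, 268 and 211 against 87.3, 38.0 and 40.3 CPM (log2 fold change 2.31 ± 0.27 SE, edgeR adjusted p = 0.00399). The 2 receptor genes were the γ constant genes Tcrg-C1 (log2 fold change 2.37 ± 0.37 SE, edgeR adjusted p = 0.0159) and Tcrg-C2 (1.96 ± 0.37 SE, edgeR adjusted p = 0.0315). At 24 h members had 89.3 against 76.0 CPM of Tcrg-C1 and 217 against 105 CPM of Tcrg-C2, and the interval of the Tcrg-C2 ratio (2.07, 0.916 to 4.90) included 1. None of the 9 tested genes of T cell receptor signalling differed at the threshold, among them Lck at 867, 778 and 581 against 559, 523 and 464 CPM (log2 fold change 0.52 ± 0.17 SE, edgeR adjusted p = 0.218).

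Other genes with large differences have roles outside these groups. Dapk2, a calmodulin-regulated kinase of the death-associated family, had the largest log2 fold change of all calls, at 796, 115 and 428 CPM in members against 43.7, 9.50 and 4.03 CPM (log2 fold change 4.82 ± 0.41 SE, edgeR adjusted p = 3.88e-04). The value of other T cells rests on 5, 1 and 1 UMIs. Cd200r4, of the CD200 receptor family, stood at 197, 102 and 116 against 0, 28.5 and 8.06 CPM (log2 fold change 3.58 ± 0.61 SE, edgeR adjusted p = 0.0211). Irf8, a transcription factor of the interferon regulatory family, stood at 114, 242 and 84.5 against 0, 38.0 and 16.1 CPM (log2 fold change 2.92 ± 0.53 SE, edgeR adjusted p = 0.0259). Neither Cd200r4 nor Irf8 had a UMI in naïve other T cells, so that their fold changes depend on the prior count of the fit. Bcl2, which protects lymphocytes from apoptosis, stood at 658, 497 and 544 against 410.5, 190.1 and 274 CPM (log2 fold change 0.98 ± 0.20 SE, edgeR adjusted p = 0.0467).

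**Figure D3:**
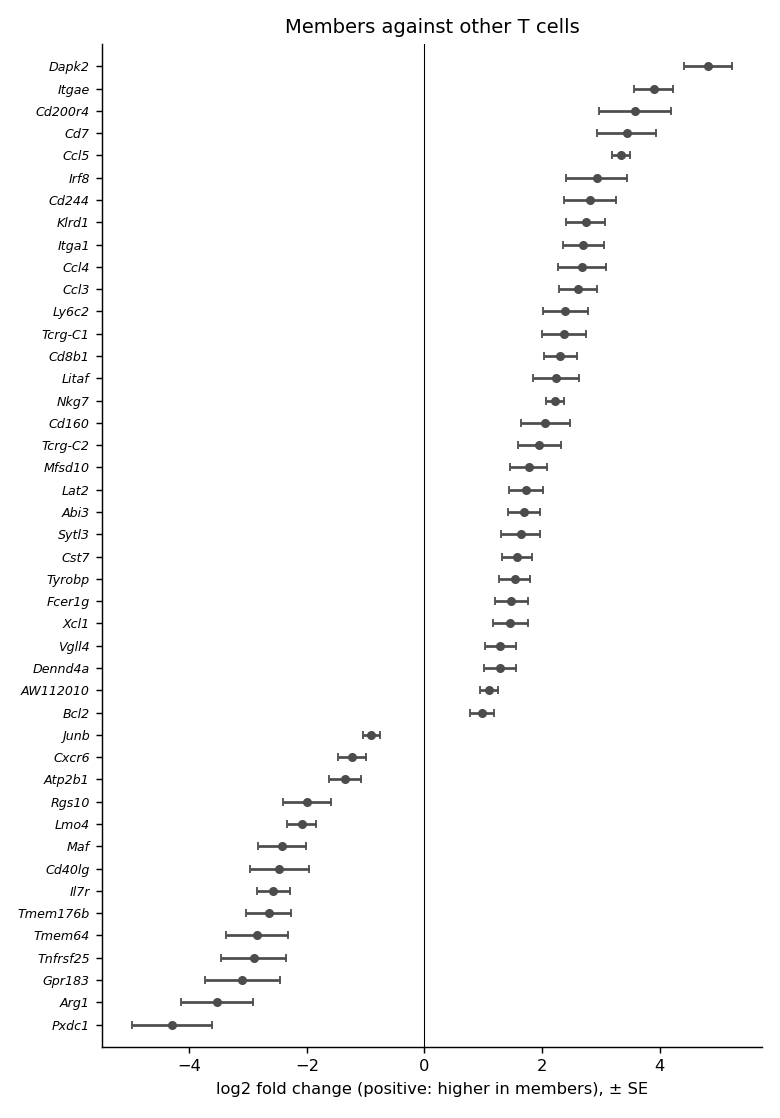
The log2 fold change of cytotoxic/γδ T cells over other T cells is plotted with its standard error for the 44 genes with an edgeR adjusted p below 0.05, over 3 libraries, with genes of the rule left out. The 30 genes to the right of 0 are led by Dapk2, Itgae and Cd200r4, and the 14 to the left end with Pxdc1 at -4.29.

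Among the genes lower in members were several known from helper T cells and innate lymphoid cells. Il7r, the receptor of the survival cytokine IL-7, stood at 34.3, 51.0 and 111 CPM in members against 297, 418 and 464 CPM in the other T cells (log2 fold change -2.57 ± 0.28 SE, edgeR adjusted p = 0.00231). Cd40lg, by which helper T cells activate B cells, stood at 14.3, 25.5 and 15.8 against 114, 66.5 and 92.7 CPM (log2 fold change -2.47 ± 0.51 SE, edgeR adjusted p = 0.0467). Maf, a transcription factor of helper and IL-17-producing γδ T cells, stood at 17.2, 89.3 and 47.5 against 209.6, 181 and 249.9 CPM (log2 fold change -2.43 ± 0.41 SE, edgeR adjusted p = 0.0201). For these 3 genes no member value reached the lowest value of the other T cells. Arg1, an arginase expressed in myeloid cells and in innate lymphoid cells, had 2.86, 12.8 and 10.6 against 69.9, 66.5 and 125 CPM (log2 fold change -3.53 ± 0.60 SE, edgeR adjusted p = 0.0211). Gpr183, an oxysterol receptor that guides lymphocytes, had 2.86, 12.8 and 42.3 against 192, 76.0 and 153 CPM (log2 fold change -3.09 ± 0.64 SE, edgeR adjusted p = 0.0467). Tnfrsf25, the receptor of TL1A, had 5.72, 25.5 and 21.1 against 122, 95.0 and 109 CPM (log2 fold change -2.90 ± 0.56 SE, edgeR adjusted p = 0.0362). Without the naïve library the log2 fold changes of Gpr183 (-1.96) and Tnfrsf25 (-2.17) were no longer called, nor was that of Tnfrsf25 without the 72 h library (-3.22). Without cells that held an NK receptor UMI, Maf (-2.04) was not called.

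The remaining named genes were Pxdc1 (log2 fold change -4.29 ± 0.68 SE), Tmem64 (-2.84 ± 0.53 SE), Tmem176b (-2.65 ± 0.39 SE) and the transcriptional adaptor Lmo4 (-2.09 ± 0.25 SE), all lower in members. Tmem176b reached 507, 846 and 669 CPM in the other T cells and 37.2, 76.5 and 222 CPM in members, and it was not called without NK receptor cells (log2 fold change -2.42). Not every other T cell had a CD3 UMI either: 31 of 44, 21 of 36 and 53 of 75 did. With a CD3 UMI required in both groups, 13 of the 20 named genes could still be tested and all 13 kept their call and direction. The other 7 (Irf8, Cd244, Pxdc1, Arg1, Gpr183, Tnfrsf25 and Tmem64) had too few UMIs left for the test. Junb (log2 fold change -0.90 ± 0.15 SE, edgeR adjusted p = 0.0173), an immediate early transcription factor, was the only 1 of 10 tested immediate early and stress genes to differ.

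Several lists had no call between members and other T cells by edgeR. These were 8 lymphoid transcription factors (median log2 fold change -0.30), 5 inhibitory and activation receptors (0.83), 5 interferon-stimulated genes (0.32), 8 MHC class I genes (0.19), 5 MHC class II genes (-1.02) and 5 cell cycle genes (-0.23). A missed threshold does not show that the groups are alike. Of the 5 cytokine receptors only Il7r was called. Il17a, the cytokine of IL-17-producing γδ cells, was rare in members. It had a UMI in 1, 0 and 0 members against 5, 2 and 4 other T cells. Only 2 genes of the list of IL-17-producing γδ cells could be tested, of which Maf was lower. The 0 of 27 members at 24 h allow a share of up to 11.1% of cells with an Il17a UMI, which is no limit on cells that express the gene. Mki67, a marker of cycling cells, had a UMI in 4, 0 and 1 members. Of 6 tested NK and innate lymphoid markers 1 was lower, Il7r.

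Other cell types left few transcripts that separated the groups. Marker lists of macrophages (5 tested genes), neutrophils (2) and B cells (1) had no call by edgeR. The 10 macrophage markers summed to 355, 2398 and 2878 CPM in members and 358, 3098 and 2785 CPM in the other T cells. The 6 neutrophil markers summed to 11.4, 369.9 and 338 and 26.2, 447 and 520.0 CPM, and the 7 B cell markers to 401, 306 and 248 and 437, 238 and 177 CPM. The neutrophil sums were lower in members than in the other T cells in every library, and the macrophage sum was lower in members at 24 h, while in both groups both myeloid sums were higher at 24 h and 72 h than in the naïve library. No gene of the epithelial, stromal or dendritic cell lists had enough UMIs for a test. In members the 4 measured epithelial markers summed to 68.7, 25.5 and 21.1 CPM, the 7 stromal, muscle and glial markers to 0, 0 and 5.28 CPM and the 6 dendritic cell markers to 20.0, 76.5 and 42.3 CPM.

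Members differed among themselves by receptor class. The Trdc class and the alpha-beta class were compared in the naïve and 72 h libraries, since 24 h held 1 cell of the Trdc class, with 2 libraries as replicates. Of 1427 genes outside the rule, 12 were higher in the Trdc class (0.841%) and 18 were lower (1.26%) at an edgeR adjusted p below 0.05, 2.1% in either direction, and 28 of the 30 had the same direction in both libraries. These calls depend on the block: without it 1 gene was higher and 0 were lower, where 144 genes had an unadjusted p below 0.05 with it, and DESeq2 with the block called 1 and 1. With a CD3 UMI required the counts were 10 and 15. No library could be left out, since 1 would remain, and the small adjusted p values rest on a spread pooled over all genes.

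The γ chain led the genes higher in the Trdc class. Tcrg-C1 stood at 1376 and 1169 CPM in the Trdc class against 257 and 177 CPM in the alpha-beta class in the order naïve and 72 h (log2 fold change 2.55 ± 0.23 SE, edgeR adjusted p = 5.87e-24), and it was the gene that also passed without the block and with DESeq2. Dapk2 stood at 881 and 835 CPM in the Trdc class against 501 and 135 CPM in the alpha-beta class (log2 fold change 1.42 ± 0.25 SE, edgeR adjusted p = 1.90e-06). Cd7 stood at 4492 and 2639 CPM in the Trdc class against 3311 and 1090.2 CPM in the alpha-beta class (log2 fold change 0.78 ± 0.13 SE, edgeR adjusted p = 1.04e-06). Car2, a carbonic anhydrase, stood at 804 and 518 CPM in the Trdc class against 222 and 322 CPM in the alpha-beta class (log2 fold change 1.36 ± 0.28 SE, edgeR adjusted p = 1.96e-04). For Tcrg-C1, Dapk2 and Car2 both Trdc class values lay above both alpha-beta class values, whereas for Cd7 the Trdc class was higher within each library only. Smaller differences were found for Fcer1g (log2 fold change 0.52 ± 0.15 SE), Ly6e (0.71 ± 0.20 SE), Fgl2 (1.24 ± 0.34 SE), the Arf regulator Smap1 (1.68 ± 0.46 SE), Osgin1 (2.55 ± 0.66 SE) and the nuclear RNA Malat1 (0.51 ± 0.13 SE).

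Genes lower in the Trdc class included several of conventional T cells. A cell without Trdc had to hold at least 2 UMIs of Gzma, Gzmb or Cd8a to be a member, whereas Trdc alone sufficed in the Trdc class, so transcripts that go with CD8 or granzymes are favoured in the alpha-beta class by the choice of cells. Of the 24 alpha-beta cells at 72 h, 10 had no NK receptor UMI. Cd8b1 stood at 176 and 0 CPM in the Trdc class against 694 and 415 CPM in the alpha-beta class (log2 fold change -2.51 ± 0.38 SE, edgeR adjusted p = 8.57e-09). Cd6, a surface receptor of αβ T cells, stood at 22 and 0 CPM in the Trdc class against 286 and 114 CPM in the alpha-beta class (log2 fold change -3.91 ± 0.75 SE, edgeR adjusted p = 3.22e-05). Lat, the adaptor downstream of the T cell receptor, stood at 187 and 184 CPM in the Trdc class against 658 and 529.5 CPM in the alpha-beta class (log2 fold change -1.67 ± 0.32 SE, edgeR adjusted p = 3.22e-05). The direction was the same in both libraries for the 3 genes, and Cd8b1 and Cd6 had no UMI in the 72 h Trdc class, so their fold changes depend on the prior count. Ccl4 stood at 606 and 167 CPM in the Trdc class against 2761 and 1049 CPM in the alpha-beta class (log2 fold change -2.28 ± 0.20 SE, edgeR adjusted p = 4.40e-26) and was the other gene that passed with DESeq2. Lgals1, which encodes galectin-1, a lectin of activated T cells, stood at 55 and 501 CPM in the Trdc class against 829.6 and 1236 CPM in the alpha-beta class (log2 fold change -2.09 ± 0.26 SE, edgeR adjusted p = 1.73e-13).

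Further genes lower in the Trdc class were Ctla2a (log2 fold change -2.24 ± 0.53 SE), which encodes an inhibitor of cathepsins, Nfkbia (-1.74 ± 0.40 SE), which encodes the NF-κB inhibitor IκBα, the nucleolar Nop56 (-3.06 ± 0.84 SE), Ms4a4b (-1.55 ± 0.36 SE) and the filament protein Vim (-1.18 ± 0.24 SE). Ccl5 had an edgeR adjusted p of 0.00630 but opposite directions in the 2 libraries, at 33038 and 22845 CPM in the Trdc class against 36473 and 10144 CPM in the alpha-beta class. None of the 4 granule genes and 1 of 11 NK receptor genes (Fcer1g) in the test differed, with medians of -0.05 and 0.35 beside 0.01 over all genes tested.

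**Figure D4:**
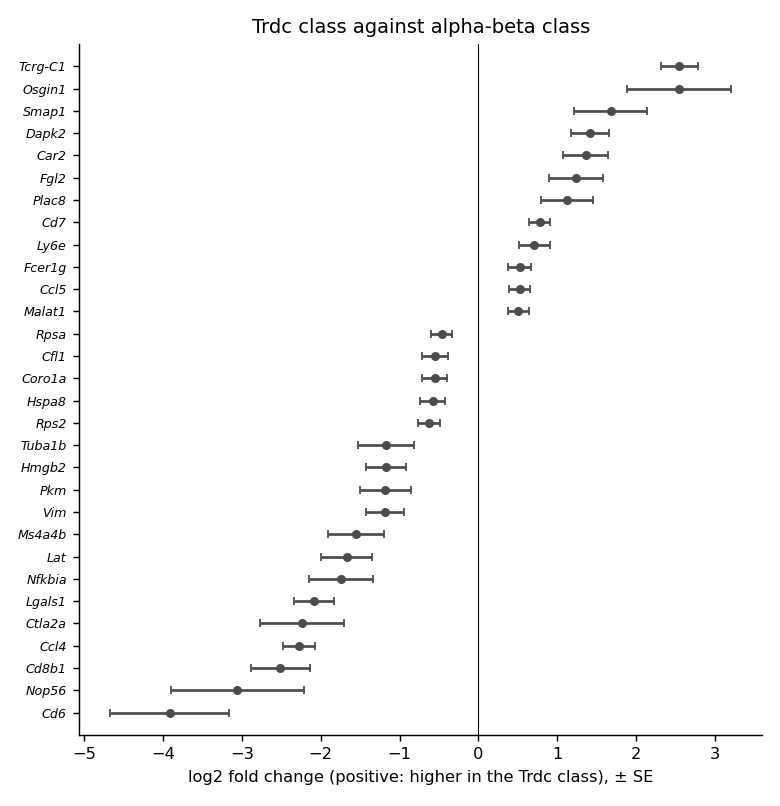
The log2 fold change of the Trdc class over the alpha-beta class is plotted with its standard error for the 30 genes with an edgeR adjusted p below 0.05, over the naïve and 72 h libraries with library as a block. Tcrg-C1 at 2.55 and Osgin1 at 2.55 lead the 12 higher genes, and Cd6 at -3.91 ends the 18 lower genes.

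Between time points the members' summed UMIs were compared without a test, as ratios of CPM with exact conditional Poisson intervals, for the 1379 genes outside the rule with a mean of at least 100 CPM. Of these, 117 were at least 2-fold higher at 24 h than in naïve members (8.48%) and 73 at least 2-fold lower (5.29%). At 72 h, 66 were at least 2-fold higher than in naïve members (4.79%) and 20 lower (1.45%). From 24 h to 72 h, 59 were higher (4.28%) and 79 lower (5.73%). The members' totals were 349411, 78401 and 189346 UMIs, so the 24 h values are the least precise. Without cells that held an NK receptor UMI the counts were 153 and 125, 78 and 44, and 121 and 132. The macrophage sums given above differed between the libraries in the same way in the other T cells, and in B cells they were 2773, 3550.1 and 3124 CPM. Of the 3 macrophage genes compared in members all 3 were at least 2-fold higher at 24 h and at 72 h than in the naïve library, and their part in the counts of genes was not tested.

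Several genes with the largest ratios over the naïve library are known from myeloid cells and were also found in the other lymphocytes. Wfdc17 stood at 2.86, 281 and 116 CPM in members, 0, 409 and 202 in the other T cells and 64, 411 and 182 in B cells. Ccl9, a chemokine of macrophages, stood at 2.86, 268 and 84.5 CPM in members, 8.73, 418 and 84.6 in the other T cells and 8.20, 364 and 60.7 in B cells. S100a9, a neutrophil and monocyte protein, stood at 2.86, 204 and 185 CPM in members, 26.2, 190.1 and 234 in the other T cells and 8.20, 82.3 and 175 in B cells. At 24 h the member values of Wfdc17 and Ccl9 were below those of both other groups. The interval of the Ccl9 ratio to the other T cells (0.641, 0.362 to 1.10) included 1. All 3 groups had their lowest value in the naïve library. Ifitm3, which restricts virus entry, stood at 5.72, 510.2 and 164 CPM in members and 26.2, 979 and 222 CPM in the other T cells. Cxcl2, a neutrophil-attracting chemokine, stood at 5.72, 421 and 169 CPM in members, 17.5, 181 and 198 in the other T cells and 13.1, 165 and 108 in B cells. The part of RNA from outside the cell in these ratios was not tested.

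Ctla2a had the largest ratio of 24 h over naïve members, 116-fold (95% interval 30.5 to 982), with 2 UMIs in naïve members. Its level was 5.72, 663 and 364 CPM in members, 122, 285 and 524 CPM in the other T cells and 0 in B cells of every library. Both kinds of T cells were thus higher after IM, and naïve members were lower than naïve other T cells. Without NK receptor cells the members stood at 6.53, 565 and 231 CPM.

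A γ chain gene was among the genes with the lowest ratio of 24 h over naïve members. Tcrg-C1 was 11.4-fold lower (ratio 0.0879, 95% interval 0.0351 to 0.183) at 24 h than in naïve members, and it was 7.45-fold (95% interval 3.51 to 18.9) higher at 72 h than at 24 h. Without NK receptor cells the ratios of Tcrg-C1 were 0.0222 and 40.0. At 24 h 16 members were then left, with at most 7 UMIs of this gene, so both ratios are imprecise. Of the 4 receptor genes outside the rule (Cd247 and the γ genes), 3 were at least 2-fold lower at 24 h than in naïve members and 3 were at least 2-fold higher at 72 h than at 24 h. Capn3, a calpain protease, stood at 240.4, 12.8 and 100.3 CPM and was 18.8-fold lower (ratio 0.0531, 95% interval 0.00133 to 0.304) at 24 h, where its single UMI was in a cell with an NK receptor UMI. Lag3, an inhibitory receptor that binds MHC class II, stood at 346, 25.5 and 111 CPM in members and 148, 38.0 and 12.1 CPM in the other T cells, and was 13.6-fold lower (ratio 0.0737, 95% interval 0.00882 to 0.272) in members at 24 h. Actn2, which encodes an actin cross-linking protein, stood at 404, 38.3 and 201 CPM, and the transcript 1810041H14Rik at 240.4, 25.5 and 100.3 CPM. These 4 genes and Tcrg-C1 had their lowest value at 24 h and an intermediate value at 72 h. Cited4 had the same order, at 249, 38.3 and 195 CPM. Beside them, Itgae stood at 418, 102 and 259 CPM and Cd7 at 4528, 753 and 2218 CPM. At 24 h these values rest on 1 to 59 UMIs each, and 2 of 27 members held Trdc.

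Interferon-stimulated genes were highest at 24 h. Of the 5 list genes compared, 4 were at least 2-fold higher at 24 h than in naïve members, and the same number was at least 2-fold lower at 72 h than at 24 h. The median log2 ratio was 2.93 for 24 h over naïve, beside 0.07 over all genes compared. Ifi27l2a stood at 80.1, 2602 and 317 CPM in members, 463, 1274 and 645 CPM in the other T cells and 287, 987 and 269.9 CPM in B cells. Isg15, a ubiquitin-like protein induced by interferon, stood at 54.4, 421 and 68.7 CPM in members, 69.9, 143 and 56.4 CPM in the other T cells and 11.5, 47.0 and 6.75 CPM in B cells. The 24 h level was thus the highest of the 3 in each group of cells, and at 24 h members stood above the other groups. Zbp1, a sensor of nucleic acids, stood at 85.9, 281 and 63.4 CPM in members and was 4.43-fold lower (ratio 0.226, 95% interval 0.102 to 0.477) at 72 h than at 24 h. Bst2 and Ly6a stood at 77.3, 446 and 127 and 54.4, 446 and 153 CPM.

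Klra7, which encodes the NK receptor Ly49G, was high at 24 h alone, at 28.6, 357 and 31.7 CPM in members, and was 11.3-fold lower (ratio 0.0887, 95% interval 0.0300 to 0.218) at 72 h than at 24 h. Members without NK receptor UMIs had 0, 174 and 0 CPM, so the 72 h over 24 h ratio without those cells was 0. In the NK receptor list 4 of 10 genes compared were at least 2-fold higher at 24 h than in naïve members and 3 were lower. Klrk1, which encodes NKG2D, stood at 31.5, 306 and 275 CPM, whereas Cd244 stood at 335, 76.5 and 264 and Klrd1 at 950.2, 395 and 766 CPM. The cells that hold NK receptor UMIs were 13.1%, 40.7% and 40.0% of members, and their part in the values of this list was not tested beyond leaving them out. Glrx, a glutaredoxin, stood at 117, 395 and 100.3 CPM and was 3.94-fold lower (ratio 0.254, 95% interval 0.135 to 0.464) at 72 h than at 24 h.

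Ccr2, Cxcr3 and Cd2 were picked from the lists after their values were seen. Ccr2, the monocyte and effector T cell chemokine receptor, stood at 25.8, 446 and 195 CPM in members and 201, 352 and 181 CPM in the other T cells. Cxcr3, a receptor for interferon-induced chemokines, stood at 71.5, 293 and 143 CPM in members. Cd2, an adhesion receptor of T cells, stood at 42.9, 369.9 and 137 CPM in members against 245, 133 and 226 CPM in the other T cells. These 3 genes had their lowest level in naïve members and their highest at 24 h, and without NK receptor cells the order was the same, at 29.4, 456 and 120.3 CPM for Cd2, 19.6, 608 and 194 CPM for Ccr2 and 75.1, 456 and 194 CPM for Cxcr3. A Cd2 UMI was found in 8.76, 55.6 and 23.6% of members, or 3.91, 22.2 and 12.7% after thinning. Over the homing list, 3 of 10 genes compared were at least 2-fold higher and 2 lower at 24 h than in naïve members.

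MHC class II transcripts were highest at 72 h. Of the 4 list genes compared all 4 were at least 2-fold higher at 72 h than in naïve members and than at 24 h, with H2-Ab1 at 94.4, 229.6 and 597 CPM and Cd74 at 175, 319 and 681 CPM in members. In B cells, which express these genes, H2-Ab1 stood at 4513, 3550.1 and 4265 CPM. Other T cells had 52.4, 1226 and 387 CPM of H2-Ab1, with the highest value at 24 h instead. Myeloid cells express these genes too, and the macrophage markers of members were also higher at 72 h than in the naïve library, at 355, 2398 and 2878 CPM. Their part in the MHC class II values was not tested. The MHC class I list had 0 of 8 genes past 2-fold at 24 h or 72 h against naïve members, with B2m at 4954, 6161 and 4457 CPM.

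Fewer genes separated 72 h from naïve members in the lower direction. After Lag3, the lowest ratios were those of Fdps, an enzyme of sterol synthesis, at 226, 25.5 and 84.5 CPM, of Hdgf at 175, 204 and 68.7 CPM, of Cdc42se2 at 160.3, 115 and 63.4 CPM and of 1810041H14Rik. Ratios of 72 h over naïve members were 0.374 for Fdps, 0.393 for Hdgf and 0.395 for Cdc42se2, and no interval reached 1. Without NK receptor cells the ratio of Cdc42se2 was 0.694 (0.336 to 1.32). The other T cells did not show these ratios for Hdgf and Cdc42se2, at 166, 171 and 165 and 122, 105 and 198 CPM, and the difference between the groups was not tested. Of the granule list, 0 of 7 genes compared passed 2-fold at 72 h over naïve in either direction and 1 (Prf1) was higher at 24 h. At 24 h, 11 UMIs of Prf1 were in the 7 members without a CD3 UMI and 3 in the 20 members with a CD3 UMI. Members with a CD3 UMI had 61.2, 52.7 and 51.0 CPM of Prf1, so that the higher 24 h value was not seen in them. Chemokine genes had 1 of 5 past 2-fold at 72 h over naïve, Ccl4, at 1537, 1314 and 655 CPM, which was lower. In members with a CD3 UMI Ccl4 stood at 1343, 562 and 746 CPM, so that it did not pass 2-fold at 72 h and was lowest at 24 h. At 24 h 71 of its UMIs were in the 7 members without a CD3 UMI. T cell receptor signalling genes had 0 of 9 past 2-fold at 72 h over naïve, and cell cycle genes 0 of 3 in any pair.

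**Figure D5:**
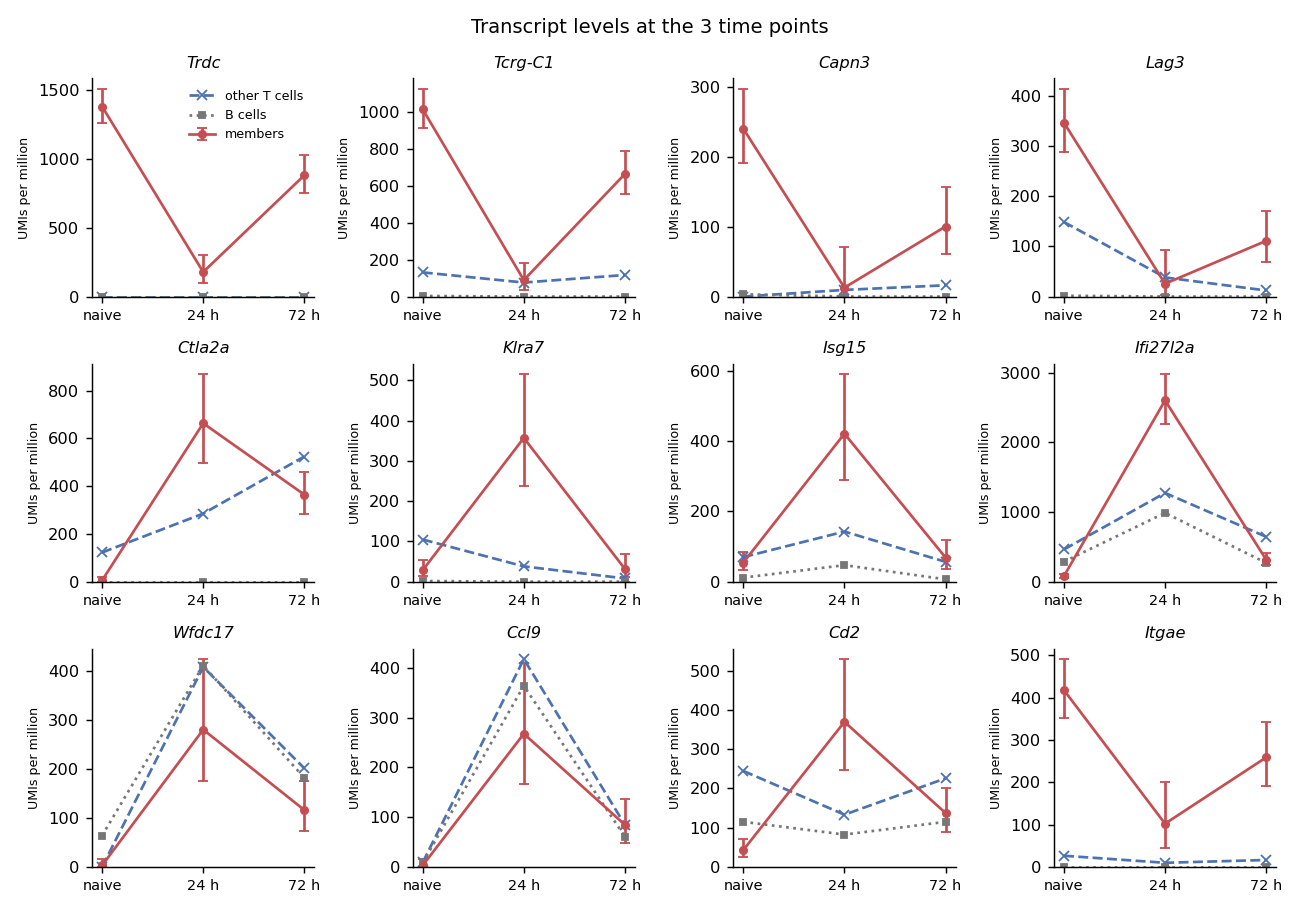
CPM of 12 genes at the 3 time points is plotted on linear axes from 0, with 95% exact Poisson intervals for cytotoxic/γδ T cells (circles) and without intervals for other T cells (crosses) and B cells (squares), lines joining libraries of 1 group. Trdc, Tcrg-C1, Capn3, Lag3 and Itgae of members are lowest at 24 h, and Ctla2a, Klra7, Isg15, Ifi27l2a and Cd2 are highest at 24 h. Wfdc17 and Ccl9 have higher plotted values in other T cells and B cells than in members at 24 h, a difference that was not tested.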

How the data were processed

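CD45+ cells of the muscularis from naïve mice and from mice 24 h and 72 h after IM were sequenced as 1 droplet library per time point. The authors deposited filtered tables of whole UMI counts per gene and cell, made with Cell Ranger 3.0.2 on GRCm38/mm10 per the submitters' processing notes, which also name Seurat. The deposited counts were used unchanged for 14148 genes, and rows without a gene held 0 UMIs. Library totals were 1865221, 10542346 and 5246731 UMIs, and all intervals cover counting error only.

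The members and gene lists (23 lists, 223 of 236 genes measured, the others not analysed here) were chosen with earlier results of these data known. Cell classes were set by UMI thresholds, without clustering, and no doublets were removed. UMIs were summed per library and group. Members were tested against the other T cells, and the Trdc class against the alpha-beta class, with edgeR 4.0.16 quasi-likelihood tests in R 4.3.3 (TMM, library as block, Benjamini-Hochberg adjusted p below 0.05, 13 rule genes left out). DESeq2 1.42.0 was an alternative. Libraries stand in for replicates, and the block takes up the differences between them. The p-values thus measure how the difference between groups within a library varied over the libraries, with the spread estimated jointly over genes. Each SE was derived from the test, as the absolute log2 fold change divided by the square root of its F statistic. It is no separate estimate of the spread, and it may understate the counting error where a group held few UMIs. Groups of different time points were compared without a test, as CPM ratios with exact 95% intervals for genes with a mean of at least 100 CPM. On simulated counts with 200 changed genes, the tests recovered 96% (members against other T cells, 2205 genes, 14 false calls) and 91% (receptor classes, 1438 genes, 6 false calls) of log2 changes of 2. These counts were drawn from the negative binomial model and spread that edgeR had fitted to the same data. The groups differed only in the changed genes, so the recovery does not show how the calls hold up outside that model. Of the time point intervals, 95.4% held the true ratio. The counts for these intervals were drawn from the Poisson distribution that the interval assumes, so this share says nothing of the spread between cells or mice.

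Named genes were list genes, the 10 largest and 10 smallest called log2 fold changes with 1 direction in every library, and the 5 largest and 5 smallest ratios per pair of time points. Other genes named were chosen after their values were seen. Alternatives changed the UMI thresholds, depth, cell filters, doublets (top 2% of Scrublet scores), low-count filter, scaling, block and libraries. Leaving out cells with a UMI of Ncr1, Klrb1c or Klre1 was added after the data were seen. Promoters came from RefSeq (GRCm38.p6), with 1 entry for each of the 3 genes shown. Counting used Python 3.11.15, numpy 2.4.6, scipy 1.17.1, pandas 2.3.3 and scanpy 1.11.5, and plots matplotlib 3.10.9.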

Additional observations from a re-analysis of the deposited data

Results flagged for a closer look

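For 16 of 247 genes examined, the ratio of cytotoxic/γδ T cells to other T cells (CPM over CPM) lay clearly above 1 in 1 library and clearly below 1 in another by its counting interval. The difference between the libraries was not tested, since each time point is 1 library, and the composition of both groups also differed between libraries.

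NK receptor genes made up 4 of them. The Klra7 ratio was 9.39 at 24 h and 0.273 in the naïve library. Klrg1 stood at 8.05 at 24 h, 0.0894 in the naïve library and 0.30 at 72 h. Klrk1 had 3.41 at 72 h and 0.212 in the naïve library, and Klrc1 had 9.83 and 0.0468. Eomes, a transcription factor of NK and memory CD8 cells, had 10.7 at 24 h (1.44 to 476), 7.21 at 72 h (1.57 to 66.9) and 0.109 in the naïve library. In the same order, these rest on 8, 11 and 2 UMIs in members against 1, 2 and 6 in the other T cells. Of these member UMIs, 5, 6 and 1 were in members without a CD3 UMI. Members with a UMI of Ncr1, Klrb1c or Klre1 were 18 of 137, 11 of 27 and 22 of 55, and their part in these ratios was not tested.

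Surface and effector genes of T cells followed. Cd2 had 2.78 at 24 h, 0.176 in the naïve library and 0.608 at 72 h, and Ctla4, an inhibitory receptor, had 3.76 at 24 h and 0.140 in the naïve library. The ratio of Ctla2a was 2.33, 0.0468 and 0.695 at 24 h, in the naïve library and at 72 h. That of Lgals1 was 1.66, 0.296 and 0.721 and that of Ifi27l2a 2.04, 0.173 and 0.491 in the same order. Ms4a4b had 3.17 at 24 h and 0.317 in the naïve library. Gzmc, a granzyme, had 2.74 at 72 h, 0.328 in the naïve library and 0.366 at 24 h.

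The other 4 genes differed between 24 h and 72 h. Cited4 had 4.41 at 72 h and 0.252 at 24 h, Glrx 3.78 at 24 h and 0.553 at 72 h, H2-Ab1 1.54 at 72 h and 0.187 at 24 h, and Nop56 2.38 at 72 h and 0.134 at 24 h.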

How the results depend on the processing

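Every alternative run kept the order of the 3 member shares. Among genes named for the size of their fold change or ratio, none with a value under an alternative changed direction. List genes were not checked in this way. In members with a CD3 UMI, Prf1 and Ccl3 changed order between naïve and 24 h, and Ccl4 between 24 h and 72 h, as given above. Of the 20 genes named against other T cells, 6 had a value after thinning and 10 without NK receptor cells. Of the summary values 81 stayed, 20 moved, 9 weakened and 4 strengthened. A share stayed when it lay within the main interval, and a count of genes when it lay within a fixed fold of the main count. That fold was set by choice and measures no spread. Of the gene values 348 stayed, 52 lost their call and 4 moved. Thinning to 1000 UMIs gave member shares of 0.682% at 24 h and 2.97% at 72 h, and Trdc and Trdc-with-Trac classes of 38.7% and 17.6% of naïve members and 9.38% with both at 72 h. Without NK receptor cells the shares were 0.724% and 2.66%, the 72 h alpha-beta class 30.3%, and members against other T cells had 19 genes higher and 5 lower. That comparison gave 86 higher and 97 lower without the low-count filter, 9 lower with DESeq2, 27 lower with library totals, and 25 to 42 higher and 11 to 38 lower when 1 library was left out. Without the replicate block it gave 19 higher and 12 lower, and the receptor classes 1 and 0, where DESeq2 gave 1 and 1 and no filter 6 higher. Genes past 2-fold with a mean of at least 200 CPM were 51 higher and 22 lower (24 h over naïve), 30 and 5 (72 h over naïve) and 23 and 28 (72 h over 24 h). Without NK receptor cells 125, 44 and 132 were lower, and 121 higher from 24 h to 72 h. A CD3 UMI gave 91 higher there, and a mean over cells 32 lower (72 h over naïve). The cause of these changes was not tested. No paired analysis was possible because each time point is 1 library of pooled mice. Depth limits the 24 h values most, with 78401 UMIs in 27 members.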
